A study of Mus musculus with 5 samples.

Results

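Monocytes and macrophages were followed in mouse pancreas through 9 genes, chosen by symbol for their known roles: Emr1, Mpeg1, Mrc1, Ctss, Chi3l3, Lyz1, Ly6c2, Laptm5 and Lcp1. All 9 were among the 1457 genes of the table, and all 9 passed the filter on low values, as did 1429 genes in all. Poly(A) RNA of whole pancreas was sequenced in 5 libraries from female C57BL/6 mice aged 8 weeks. Of these, 2 came from wild-type mice given caerulein (replicates 1 and 2), 2 from miR-21-/- mice given caerulein (replicates 1 and 3), and 1 from a wild-type mouse given saline. Caerulein mimics the gut hormone cholecystokinin and, injected repeatedly, brings on acute pancreatitis. It was given intraperitoneally at 50 µg/kg, and the pancreas was removed 24 h after the first dose. The miR-21-/- mice lack the microRNA gene, the cell types in which it was removed are not given in the labels, and no miR-21-/- mouse given saline was analysed here. No microRNA gene is among the genes analysed, so the deletion itself was not checked. Whether the libraries are separate mice is not said in the labels, so the p-values measure only the spread between them, which may be technical.

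In acute pancreatitis, injured acinar cells release signals that draw leukocytes from the blood. Monocytes that carry the surface protein Ly6C enter the tissue and mature into macrophages, which take up dead cells and debris, digest them in lysosomes and secrete factors that act on stellate cells. The pancreas also holds resident macrophages before injury, which typically carry the adhesion receptor encoded by Emr1 (current symbol Adgre1) and the mannose receptor encoded by Mrc1. In whole tissue, fewer cells of a type and less RNA per cell cannot be told apart.

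The sequences that bear on the design are the deleted microRNA and the promoters of the monocyte and macrophage genes. The mature strand is shown from RefSeq (GRCm38.p6, chr11:86584120-86584141, minus strand) with its seed, bases 2 to 8, in capitals, since pairing to the seed is how a microRNA chooses its targets.
miR-21a-5p: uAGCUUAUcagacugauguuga
The complement of the seed, ATAAGCT, was looked for in the 3′ UTR of the longest coding transcript of each gene in GENCODE release M21. It occurred in 0 of the 9 monocyte and macrophage genes and in 111 of the 1406 tested genes with a 3′ UTR (7.9%). None of the 9 genes therefore holds a full seed match in these 3′ UTRs, and other kinds of pairing were not searched.

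Promoters, from 250 bases before to 50 after the start of transcription, were available from RefSeq (GRCm38.p6) for 8 of the 9 genes, in 10 windows. They were searched on both strands for GAGGAA, the core of sites bound by PU.1, a transcription factor of myeloid cells, and for TTGCNNAA, a form bound by C/EBP factors. These motifs do not overlap each other. GAGGAA, or its complement on the other strand, was in the promoters of Mrc1, Ctss, Ly6c2 and Laptm5, 4 of 8 genes, against 31.9% of the 1131 tested genes with a promoter and 28.3% of all 32851 promoter windows. TTGCNNAA was in that of Lyz1 alone, 1 of 8 genes, against 10.3% of the tested genes and 10.8% of all windows. The promoters of a monocyte gene (the first of its 2 windows), a resident-like gene and a general myeloid gene with the motif, and of a macrophage gene without it, are shown with each match to GAGGAA or its complement in capitals.
Ly6c2 promoter, chr15:75111922-75112221, minus strand: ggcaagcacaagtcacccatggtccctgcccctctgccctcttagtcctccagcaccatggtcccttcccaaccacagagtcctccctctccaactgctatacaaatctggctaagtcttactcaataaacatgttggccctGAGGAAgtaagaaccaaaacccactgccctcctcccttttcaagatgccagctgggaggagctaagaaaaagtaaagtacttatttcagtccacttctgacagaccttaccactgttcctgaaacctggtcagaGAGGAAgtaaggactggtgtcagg
Mrc1 promoter, chr2:14229164-14229463, plus strand: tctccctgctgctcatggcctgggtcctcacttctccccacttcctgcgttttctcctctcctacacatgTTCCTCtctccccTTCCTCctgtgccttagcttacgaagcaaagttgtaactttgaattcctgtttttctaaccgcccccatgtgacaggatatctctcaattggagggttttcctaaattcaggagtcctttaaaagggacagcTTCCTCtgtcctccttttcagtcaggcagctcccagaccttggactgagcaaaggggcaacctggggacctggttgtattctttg
Laptm5 promoter, chr4:130913066-130913365, plus strand: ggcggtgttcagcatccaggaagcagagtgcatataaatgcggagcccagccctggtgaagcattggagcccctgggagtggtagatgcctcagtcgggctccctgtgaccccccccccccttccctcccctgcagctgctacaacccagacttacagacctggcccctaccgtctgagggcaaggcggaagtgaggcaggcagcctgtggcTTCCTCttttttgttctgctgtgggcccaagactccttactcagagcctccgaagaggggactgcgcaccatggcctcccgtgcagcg
Mpeg1 promoter, chr19:12460520-12460819, plus strand: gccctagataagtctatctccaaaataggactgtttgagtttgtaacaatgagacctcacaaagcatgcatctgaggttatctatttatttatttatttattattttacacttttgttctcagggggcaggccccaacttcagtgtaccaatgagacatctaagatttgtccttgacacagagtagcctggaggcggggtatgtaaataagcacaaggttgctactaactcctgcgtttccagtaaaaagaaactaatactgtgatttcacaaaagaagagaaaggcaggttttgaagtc
Ly6c2 had matches 108 bases before and 26 bases after the start, Mrc1 had 3 within the 180 bases before it, and Laptm5 had 1 at 38 bases before it. A match describes these letters and not a bound site.

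The values have no stated unit and cannot be compared in level between genes, since they are not known to be per length. The listed values of the 1457 genes summed to 2818 in saline and to between 23255 and 38628 in the caerulein libraries, and the lowest listed value, 0.01, stood for 540 genes in saline and for 31 to 89 in each caerulein library. The table is sorted by the wild-type caerulein mean over saline, and every gene in it has some caerulein library at least 2.528-fold away from saline. A difference from saline is thus built into the choice of genes. Of 1429 tested genes 87.6% had all 4 caerulein values above saline. The caerulein libraries also differed in scale, with median ratios to their common mean of 1.35 and 0.722 in wild-type replicates 1 and 2 and of 1.12 and 0.977 in miR-21-/- replicates 1 and 3.

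The 9 genes had low values in the saline library and mostly much higher values after caerulein in both genotypes. In saline 5 of the 9 genes (Emr1, Mrc1, Chi3l3, Ly6c2 and Lcp1) were at 0.01 and the other 4 lay between 0.38 and 1.24, around the saline median of 0.62 over all 1457 genes. The lowest value does not show that a transcript was scarce, since Rhoa and Actr2, genes that most cells use, were also listed at 0.01 in saline. After caerulein 8 of 9 were above saline in all 4 libraries, beside 87.6% of all tested genes. The exception was Chi3l3, which was at 0.01 in wild-type replicate 2 as well.

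**Figure D1:**
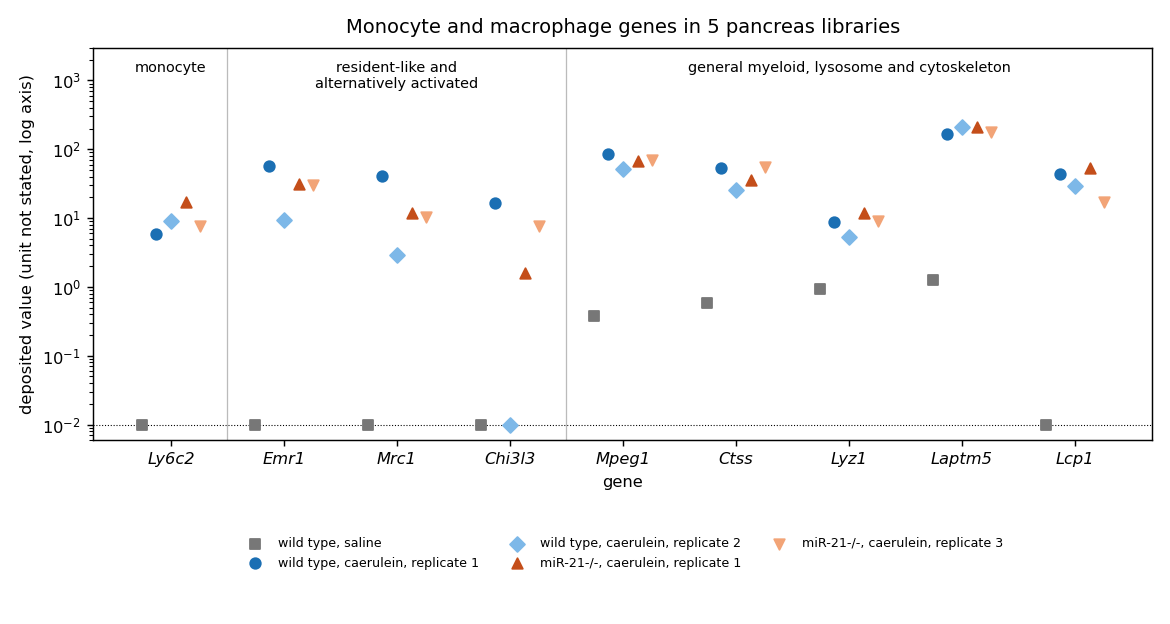
Deposited value of each of the 9 genes (log axis, unit not stated) in the saline library (grey squares), the wild-type caerulein libraries (blue) and the miR-21-/- caerulein libraries (orange), with 1 point per library and the lowest listed value, 0.01, as a dotted line. Emr1, Mrc1 and Chi3l3 spread widely between the blue points, while Mpeg1 and Laptm5 hold the caerulein libraries close together.

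Ly6c2 encodes a surface protein of inflammatory monocytes, anchored in the membrane by a lipid. Its value was 0.01 in saline. After caerulein it was 5.89 and 9.15 in replicates 1 and 2 of the wild type, and 16.86 and 7.65 in miR-21-/- replicates 1 and 3. The highest value was in miR-21-/- replicate 1 and the lowest in wild-type replicate 1, and the genotypes overlapped. Ly6c2 rose in both comparisons with saline, by 3.05 on the log2(value + 1) scale in wild type (SE 1.07, limma adjusted p = 0.01355) and by 3.62 in miR-21-/- (SE 1.07, limma adjusted p = 0.003595). Both calls were lost without miR-21-/- replicate 1, with limma adjusted p = 0.0944 for wild type and 0.1583 for the knockout. The wild-type call was also lost with equal library sums (limma adjusted p = 0.055) and in a fit of only the 2 groups (0.1166).

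Emr1, the receptor by which mouse tissue macrophages are most often recognised, was listed at 0.01 in saline. It reached 57.43 and 9.27 in wild-type replicates 1 and 2, and 31.76 and 30.54 in miR-21-/- replicates 1 and 3. The knockout libraries nearly coincided and both lay between the wild-type values, which stood 6.2-fold apart. Emr1 rose by 4.60 in wild type (SE 1.06, limma adjusted p = 0.0004889) and by 4.99 in the knockout (SE 1.06, limma adjusted p = 0.0001821).

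Mrc1, an endocytic receptor for glycoproteins that is used as a marker of resident and alternatively activated macrophages, was also at 0.01 in saline. Its values were 41.08 and 2.94 in wild-type replicates 1 and 2 and 11.77 and 10.52 in miR-21-/- replicates 1 and 3. The order of the libraries was that of Emr1, with the knockout again inside the wild-type range and a gap of 13.97-fold between the wild-type libraries. Mrc1 rose by 3.67 in wild type (SE 1.01, limma adjusted p = 0.002371) and by 3.59 in the knockout (SE 1.01, limma adjusted p = 0.002629). Without wild-type replicate 1 the wild-type difference fell to 1.96 and its call was lost. Without miR-21-/- replicate 1 the knockout call was lost as well. The knockout difference was then nearly unchanged at 3.51, while its SE grew from 1.01 to 1.36.

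Chi3l3 (current symbol Chil3) encodes a secreted chitinase-like protein made by alternatively activated macrophages and by some neutrophils. It was 0.01 in saline, 16.32 and 0.01 in wild-type replicates 1 and 2, and 1.58 and 7.73 in miR-21-/- replicates 1 and 3. Its spread was the widest of the 9 genes, from the lowest listed value to 16.32 within a genotype. Chi3l3 did not pass in either comparison with saline (log2 differences of 2.05 and 2.23, SE 2.38, limma adjusted p = 0.4332 and 0.3883), and with quantile normalization both differences took the other sign. Without wild-type replicate 2 the wild-type difference was 4.10 (limma adjusted p = 0.01333).

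Mpeg1 encodes a pore-forming protein of phagocytes that acts on bacteria inside the phagosome. Mpeg1 was at 0.38 in saline, at 84.72 and 51.56 in wild-type replicates 1 and 2, and 67.15 and 69.34 in miR-21-/- replicates 1 and 3. The lowest caerulein value was 135.7-fold above saline, and the caerulein libraries lay within 1.64-fold of each other. The fitted differences from saline were 5.60 in wild type and 5.65 in the knockout (SE 1.10, limma adjusted p = 0.0001159 and 9.754e-05).

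Ctss encodes cathepsin S, a lysosomal protease that trims the invariant chain during antigen presentation. It was 0.59 in saline, 54.18 and 25.45 in wild-type replicates 1 and 2, and 35.89 and 55.91 in miR-21-/- replicates 1 and 3. High and low libraries occurred in each genotype, and the lowest was 43.1-fold above saline. Ctss rose by 4.59 in wild type and by 4.85 in the knockout (SE 1.06, limma adjusted p = 0.0004947 and 0.0002649). With equal library sums the wild-type difference was 2.43 and did not pass (limma adjusted p = 0.05669).

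Lyz1 encodes a secreted lysozyme, best known from Paneth cells, that has a close paralog, Lyz2, in myeloid cells. It was 0.93 in saline, 8.81 and 5.37 in wild-type replicates 1 and 2, and 11.93 and 8.97 in miR-21-/- replicates 1 and 3. Both knockout values lay above both wild-type values, with a mean of 10.45 ± 2.09 (SD, n = 2) against 7.09 ± 2.43 (SD, n = 2), a difference smaller than the sum of the SDs. It rose in the knockout by 2.56 (SE 1.03, limma adjusted p = 0.02779) and not past the threshold in wild type (2.03, SE 1.03, limma adjusted p = 0.077). The wild-type difference passed with median-ratio scaling (limma adjusted p = 0.03756), a pseudocount of 0.1 (0.02081), the fixed block of similar libraries (0.03361) and without wild-type replicate 2 (0.04411). With equal library sums the knockout difference was 0.03 and did not pass (limma adjusted p = 0.9862). The knockout call was lost without either knockout library (limma adjusted p = 0.1849 and 0.09838 without replicates 1 and 3), and the wild-type difference turned negative with equal library sums and, as did the knockout difference, with quantile normalization.

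Laptm5, which sits in the lysosomal membrane of leukocytes and sends antigen receptors to degradation, was the steadiest after caerulein. It was 1.24 in saline, 167.2 and 207.34 in wild-type replicates 1 and 2, and 213.33 and 180.11 in miR-21-/- replicates 1 and 3. Wild-type replicate 2, the library with the smallest sum, was here the higher of the wild-type libraries. The differences from saline were 6.38 and 6.46 (SE 1.18, limma adjusted p = 5.09e-05 and 3.6e-05). On the log2(value + 1) scale they exceeded those of 99.9% of tested genes in each comparison.

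Lcp1 encodes plastin-2, a protein that bundles actin in leukocytes and serves their migration and phagocytosis. It was 0.01 in saline, 43.97 and 28.81 in wild-type replicates 1 and 2, and 54.12 and 17.13 in miR-21-/- replicates 1 and 3. The knockout libraries were 3.16-fold apart and enclosed both wild-type values. Lcp1 rose by 5.18 in wild type and by 4.97 in the knockout (SE 1.05, limma adjusted p = 0.000162 and 0.0001821), and the knockout call was lost without miR-21-/- replicate 1 (limma adjusted p = 0.06672).

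Lyz1, Ly6c2 and Chi3l3 have near-identical copies whose reads could have been shared or split, and how reads with several matches were counted is not given in the sources used here. Of the windows of 36 bases in the transcript, 28.5% for Lyz1 also occurred exactly in that of Lyz2, 44.5% for Ly6c2 in that of Ly6c1, and 26.8% for Chi3l3 in that of Chil4. At 50 bases the shares were 16.1%, 32.6% and 18.5%. No window of 36 bases of Emr1 was found in its relative Adgre4. The read length is not given, so these lengths are examples. None of Lyz2, Ly6c1, Chil4 and Adgre4 was analysed here, and the values of Lyz1, Ly6c2 and Chi3l3 are uncertain to that extent.

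The first comparison, wild-type caerulein against saline, asked how these transcripts stood a day into pancreatitis. Of the 9 genes 7 rose, 0 fell and 2, Chi3l3 and Lyz1, did not pass the test. In the same fit 57.3% of the 1429 tested genes rose, in a table chosen for that difference. The median log2 difference of the 9 was 4.59, with a range of 2.03 to 6.38, against 2.71 for all tested genes. Laptm5, Mpeg1 and Lcp1 stood above 99% of tested genes in size of rise (99.9%, 99.7% and 99.3% below them), Emr1 and Ctss above 96.7% and 96.6%, Mrc1 above 85.6% and Ly6c2 above 65.2%. Lyz1 and Chi3l3, above 23% and 23.5%, stood in the lower part. These ranks hold for log2(value + 1), where the rise of a gene near 0 in saline follows its level after caerulein. The order of the 9 depended on the pseudocount. With 0.1 the differences were 8.34 for Lcp1, 7.72 for Emr1, 7.12 for Laptm5, 7.11 for Mpeg1 and 6.67 for Mrc1. Ly6c2 then stood at 6.08, Ctss at 5.75, Chi3l3 at 3.61 and Lyz1 at 2.76. Quantile normalization, which forces the saline library to the distribution of the others, left 0 of the 9 called and took the median of all tested genes from 2.71 to 0.07. The fold rises that can be given were 179.3 for Mpeg1, 151.0 for Laptm5, 67.5 for Ctss and 7.6 for Lyz1, as the wild-type caerulein mean over the saline value, the other 5 genes being at the lowest listed value in saline.

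The second comparison, miR-21-/- caerulein against the same saline library, differs from it in genotype as well as treatment. Of the 9 genes 8 rose, 0 fell and 1, Chi3l3, did not pass, beside 60.3% of all tested genes that rose. The median was 4.85, against 2.80 for all tested genes, with Laptm5, Mpeg1, Emr1 and Lcp1 at the top of the panel and Lyz1 and Chi3l3 at its foot. The knockout means were 179.6-fold above saline for Mpeg1, 158.6-fold for Laptm5, 77.8-fold for Ctss and 11.2-fold for Lyz1. Without miR-21-/- replicate 1 the count was 4 (Emr1, Mpeg1, Laptm5 and Ctss), while 29 of the 1429 tested genes were called in that fit. With quantile normalization it was 0 of the 9.

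**Figure D2:**
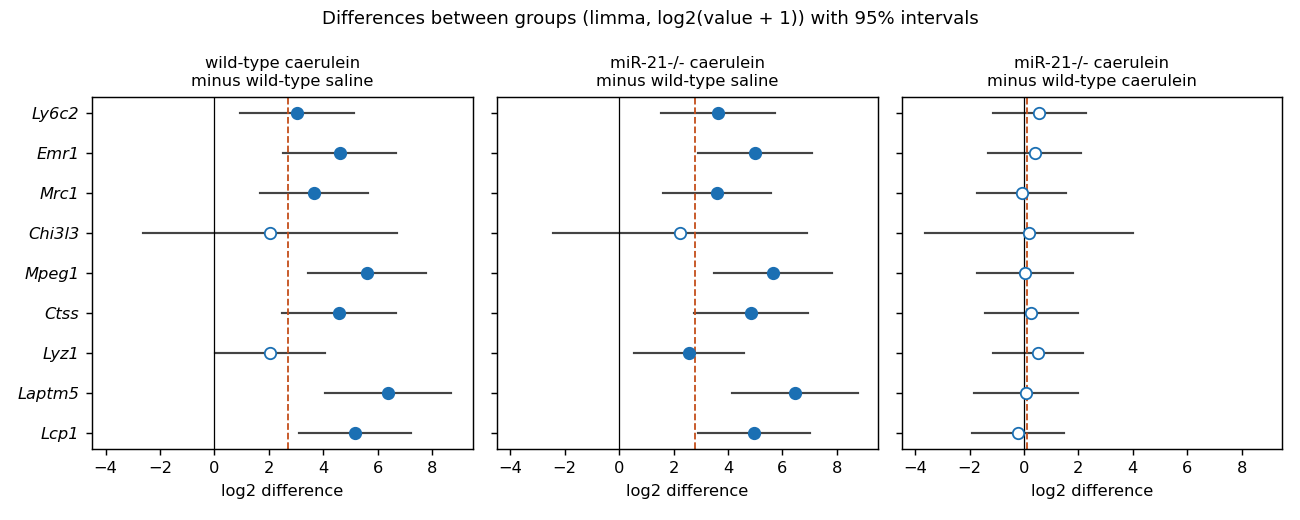
Fitted log2 difference of each gene with its 95% interval in the 3 comparisons, filled where the limma adjusted p was under 0.05, with the median of all tested genes as a dashed line. In the panel of knockout against wild type all 9 intervals include 0, while Laptm5, Mpeg1 and Lcp1 lie farthest to the right in the wild-type panel against saline.

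The third comparison, miR-21-/- against wild type after caerulein, asked whether these transcripts stood at other levels without the microRNA. None of the 9 genes passed by limma, beside 0% of all tested genes. At an unadjusted p under 0.05 stood 0 of the 9 and 7 of all 1429 tested genes (0.49%). Emr1 differed by 0.39 (95% interval -1.31 to 2.09), Mrc1 by -0.09 (-1.71 to 1.53) and Ly6c2 by 0.57 (-1.13 to 2.28), each with a limma adjusted p = 0.9997. Mpeg1 and Laptm5, the genes with the closest libraries, differed by 0.04 (-1.72 to 1.81) and 0.07 (-1.82 to 1.97), and both signs turned when the libraries were scaled by their median ratio, with equal sums or by quantiles. The intervals, with a median reach of 1.70 to either side, allow differences of either sign that are larger than those fitted. The values of the genotypes did not overlap for 1 of the 9 genes, Lyz1, beside 9.31% of tested genes (4.76% with the knockout higher, as for Lyz1). For 4 genes (Emr1, Mrc1, Mpeg1 and Chi3l3) both knockout values fell between the wild-type values, as they did for 35.5% of all tested genes.

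For 8 of the 9 genes the gap between the wild-type libraries exceeded the gap between the genotype means on the log2 scale. Single libraries vary more than means of libraries, and the share over all tested genes was not computed. The count is therefore not read as a trait of these genes. Wild-type replicate 1 was above replicate 2 for 7 of 9 genes, beside 74.4% of tested genes, with a median gap of 0.90 over all tested genes. Mrc1, Emr1 and Chi3l3 were the genes with the largest such gaps, 3.42, 2.51 and 4.10, larger than those of 95%, 86.3% and 98.9% of tested genes. Mpeg1, Ctss, Lyz1 and Lcp1 had gaps of 0.59 to 1.06, near the median of all genes, and Ly6c2 and Laptm5 were lower in replicate 1, at -0.56 and -0.31. In the knockout, Emr1, Mrc1 and Mpeg1 differed by 0.15 or less between replicates 1 and 3. Lcp1 and Ly6c2 were higher there in replicate 1, by 1.60 and 1.05, and Chi3l3 in replicate 3 (replicate 1 minus 3 of -1.76).

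**Figure D3:**
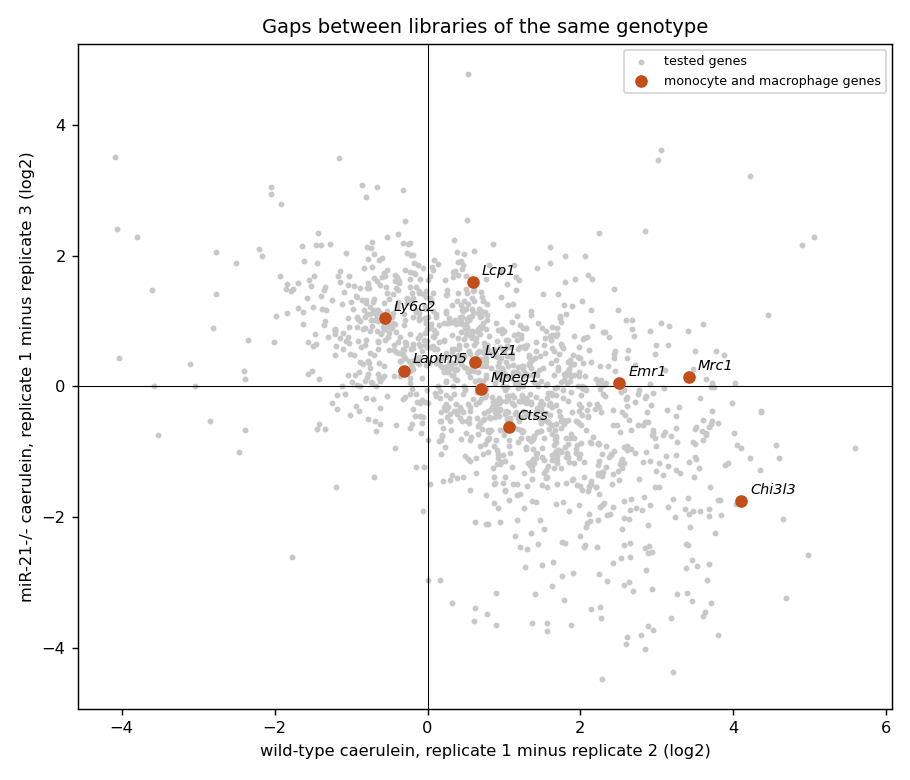
Gap between the wild-type caerulein libraries (horizontal, replicate 1 minus 2) and between the miR-21-/- libraries (vertical, replicate 1 minus 3) in log2(value + 1), with the 1429 tested genes in grey and the 9 genes in orange. Emr1, Mrc1 and Chi3l3 lie far to the right, at 2.51, 3.42 and 4.10, and Ly6c2 and Laptm5 left of 0.

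The genotype difference of the resident-like genes changed sign with the wild-type library left out. This follows from both knockout values lying between the wild-type values, as they did for 35.5% of all tested genes. The median difference over all tested genes also changed sign, at 0.50 without wild-type replicate 1 and -0.33 without wild-type replicate 2. Without wild-type replicate 1, knockout minus wild type was 1.65 for Emr1 and 1.62 for Mrc1, and without wild-type replicate 2 it was -0.86 and -1.79. For Ly6c2 the same values were 0.29 and 0.85. None passed (limma adjusted p from 0.9268 to 1 for these 3 genes), and a lone library is assumed there to vary like the other group.

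Monocyte and resident-like transcripts were next compared within each library. There a ratio of deposited values does not depend on the scale of the library, while a difference of log2(value + 1) still does for low values. The monocyte side is Ly6c2 alone, which shares part of its sequence with Ly6c1 as given above. The contrast is one of genes, and macrophages that matured from monocytes cannot be told from resident ones by it. The mean log2 value of Emr1 and Mrc1 minus that of Ly6c2 was 2.85 in wild-type replicate 1, -0.67 in wild-type replicate 2, 0.20 in miR-21-/- replicate 1 and 1.14 in miR-21-/- replicate 3. The knockout libraries stood between the wild-type libraries, so the genotypes overlapped. As ratios of deposited values, Emr1 over Ly6c2 was 9.75 and 1.01 in wild-type replicates 1 and 2, and 1.88 and 3.99 in miR-21-/- replicates 1 and 3; only the change of this ratio between libraries can be read, not its size. Against the mean of Mpeg1, Ctss, Chi3l3, Lyz1, Laptm5 and Lcp1, the pair Emr1 and Mrc1 stood at 0.21 in wild-type replicate 1, -1.62 in replicate 2, and -0.63 and -0.76 in the knockout. Ly6c2 stood at -2.63, -0.94, -0.82 and -1.90 in the same order. Ly6c2 was thus lowest against the general myeloid genes in the library where Emr1 and Mrc1 were highest. The general mean includes Chi3l3, a gene of alternatively activated macrophages, at 16.32 in wild-type replicate 1 and 0.01 in replicate 2. That mean therefore moved in part with Emr1 and Mrc1.

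**Figure D4:**
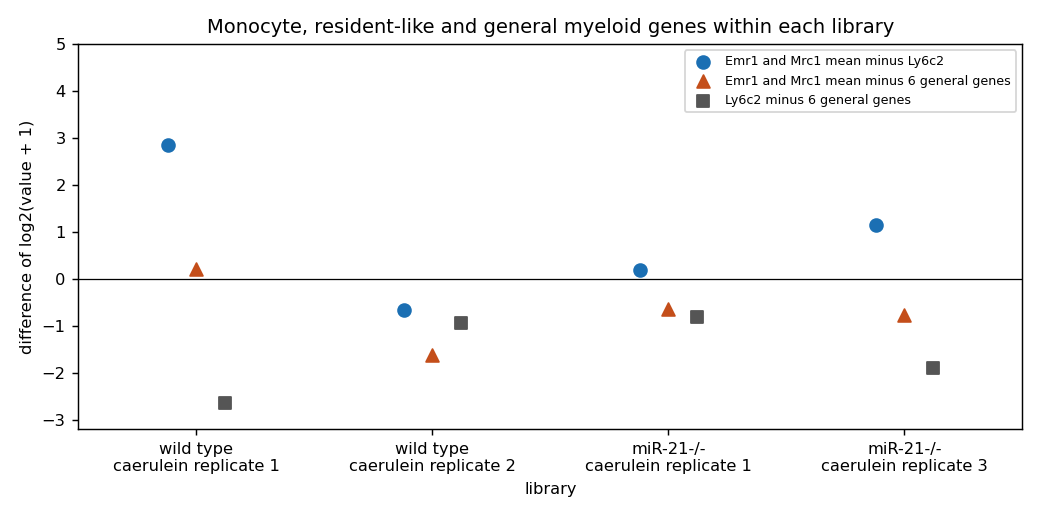
Differences of log2(value + 1) between groups of genes within each caerulein library, with 1 point per library and contrast. The blue points lie at 2.85 and -0.67 in the wild-type libraries and at 0.20 and 1.14 in the knockout, between them.

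Other macrophage surface genes were higher in wild-type replicate 1 too, as were most tested genes, and some by little more than the median gene. Of 42 symbols listed for macrophage surface and phagocytosis 6 were in the table (Cd163, Cd36, Clec7a, Cd84, Cd53 and Siglec1), and all 6 were higher in wild-type replicate 1 than in replicate 2, beside 74.4% of tested genes. Cd163, a haemoglobin scavenger receptor of resident macrophages, was 0.01 in saline, 13.38 and 0.62 in wild-type replicates 1 and 2, and 4.71 and 2.67 in miR-21-/- replicates 1 and 3. Cd36, a receptor for lipids that fat and endothelial cells also carry, was 37.61 and 1.33 in wild type and 8.62 and 16.9 in the knockout. Cd53, a membrane protein of leukocytes, was 19.69 and 0.01, against 5.72 and 7.78. Siglec1, an adhesion receptor of tissue macrophages, was 30.89 and 13.02, against 22.56 and 12.43. Clec7a, a receptor for fungal glucans, was 15.87 and 7.18 in wild type and 10.23 and 11.42 in the knockout, and Cd84, an adhesion molecule of leukocytes, 17.95 and 8.22, against 8.03 and 11.78. The wild-type gaps of Clec7a, Cd84 and Siglec1, 1.04, 1.04 and 1.19 on the log2 scale, were near the median of 0.90 over all tested genes, while those of Cd163, Cd36 and Cd53 were 3.15, 4.05 and 4.36. Cd163, Cd36, Cd53, Clec7a and Mrc1 were thus highest in wild-type replicate 1 and, after caerulein, lowest in wild-type replicate 2. Cd84 was lowest after caerulein in miR-21-/- replicate 1 and Siglec1 in miR-21-/- replicate 3. Both knockout values lay between the wild-type values, in either order of the replicates, for 35.5% of all tested genes. Of the 6 macrophage surface genes 4 rose in wild type and 4 in the knockout against saline, beside 57.3% and 60.3% of tested genes. Between the genotypes 0 differed.

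Of 34 symbols for monocyte recruitment, adhesion and growth factors 5 were in the table, of which 3 rose in wild type and 2 in the knockout, beside 57.3% and 60.3% of all tested genes. Selplg, the selectin ligand by which leukocytes roll on endothelium, was 0.99 in saline, 35.3 and 46.61 in wild-type replicates 1 and 2, and 69.51 and 24.37 in miR-21-/- replicates 1 and 3. Selplg had its highest value in miR-21-/- replicate 1, as did Ly6c2, Lyz1, Laptm5 and Lcp1. Of 41 lysosome and antigen-processing symbols 7 were in the table, of which 6 rose in wild type and 5 in the knockout, with the same 57.3% and 60.3% of all tested genes beside them. Lamp1, a lysosomal membrane protein of most cells, went from 0.25 to 41.86 and 20.97 in wild type and to 70.55 and 19.92 in the knockout. Npc2, a lysosomal cholesterol carrier, and H2-Eb1, a chain of the class II molecules that present antigen, were also highest in miR-21-/- replicate 1, at 80.18 and 100.05.

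Of 64 symbols for leukocyte signalling and the actin cytoskeleton 18 were in the table, of which 15 rose in wild type and 13 in the knockout (57.3% and 60.3% over all tested genes), 0 fell, and 0 differed between the genotypes. Their median difference was 3.38 in wild type, between the 2.71 of all tested genes and the 4.59 of the 9 genes. Rac2, a GTPase of blood cells, was 0.01 in saline, 16.56 and 8.41 in wild type and 17.36 and 8.36 in the knockout. Ptprc, the common leukocyte surface phosphatase, did not pass in wild type at 11.26 and 2.26 from 0.01. Of 34 complement and secreted macrophage products 5 were in the table, and 2 of them, Fn1 and Thbs1, rose in wild type; both are also matrix genes of stellate cells.

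Markers of other cell types moved between the same libraries, and their part in these results was not tested. The summed values of 12 stellate cell and matrix markers, of 24 listed, were 3.54 in saline, 950.61 and 226.81 in wild-type replicates 1 and 2, and 281.03 and 485.78 in miR-21-/- replicates 1 and 3. Few acinar markers were in the table, so the labelled tissue could not be checked from it. The sums of the 4 present, of 32 listed, were 11.26, 983.43, 38.5, 314.97 and 636.2 in the same order. Like Emr1 and Mrc1, both sums were highest in wild-type replicate 1 and lowest, after caerulein, in replicate 2. Of the 4 acinar markers 3 rose against saline in each genotype, beside 57.3% and 60.3% of tested genes. Their median differences were 3.65 in wild type and 4.22 in the knockout, against 4.59 and 4.85 for the 9 genes. Among the genes of the table, which were chosen for a difference from saline, a rise was thus not particular to leukocyte genes. The acinar markers outside the table cannot be assessed. Of 12 endothelial markers only Vwf was in the table, at 2.08 in saline. It was 10.15 and 22.93 in wild-type replicates 1 and 2, and 27.77 and 15.25 in miR-21-/- replicates 1 and 3. The order of its caerulein libraries was that of Ly6c2. Only 2 of 19 neutrophil markers were in the table. Csf3r, the receptor for the growth factor of neutrophils, was 0.01 in saline, 8.09 and 21.82 in wild type, and 16.26 and 6.69 in the knockout, and was higher in wild-type replicate 2, as was Ly6c2. Hp, an acute-phase haemoglobin-binding protein of liver and neutrophils, was higher in wild-type replicate 1, at 7.16 and 0.01 in replicates 1 and 2, and was 0.48 in saline and 10.23 and 0.01 in miR-21-/- replicates 1 and 3. The pair thus had no common order in wild type. Of the listed markers of T and NK cells (21) and of dendritic and mast cells (18), 0 were in the table, and of 15 for B and plasma cells 2 were, Cd79a and Igj. Igj, the joining chain of secreted antibodies, was 51.75 and 0.77 in wild-type replicates 1 and 2 and 10.9 and 1.64 in miR-21-/- replicates 1 and 3. Cd79a, a chain of the B cell receptor complex, was 8.8 in saline, 5.95 and 3.81 in wild type and 39.74 and 0.48 in the knockout, with its highest value in miR-21-/- replicate 1. With few or no defining markers in the table, the other blood cells cannot be assessed from it.

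The genes whose pattern over the 5 libraries was closest to that of the 9-gene mean, by the root mean square difference of centred log2 values, were Plin2 (0.06), Ghitm (0.13), Aldoart2 (0.14), Cfl1 (0.14) and Galnt1 (0.15), against a median of 0.83 over the other tested genes. Closest to Emr1 were Rps16 (0.18), Cd47 (0.24), Lox (0.26), Postn (0.32) and Aldoart2 (0.32), while Mrc1 stood at 0.59 and Mpeg1 at 0.68. Closest to Ly6c2 were Eif5a (0.14), Ndufa12 (0.16), Acot2 (0.17), Stx8 (0.17) and Crls1 (0.19), with Lyz1 the nearest of the other monocyte and macrophage genes at 0.60 and Chi3l3 the farthest at 1.79. Each list holds genes that many cell types express, and the likeness rests on 5 libraries, of which saline is the lowest for each of these genes.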

How the data were processed

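Per the labels' protocols, poly(A) RNA of whole pancreas was fragmented, random primed and sequenced. Bowtie 0.12.2 and build mm8 are named in the submitters' processing notes. Annotation, quantification and choice of genes: not given in the sources used here. Each deposited file holds a signal per gene symbol, of unstated unit; 1 blank row per file was left out. The 200 lowest values of a library came no closer than 33.5% to whole steps (tolerance 0.1), with or without transcript length, so the depth is unknown and no count test or counting interval was used.

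Values were transformed to log2(value + 1), so that changes of low genes are understated. Genes reaching 1 in 2 or more libraries were fitted over all 5 libraries with limma 3.58.1 (R 4.3.3), using group means, a trended, robust empirical Bayes variance and Benjamini-Hochberg adjustment over 1429 genes at 0.05. The saline library has no replicate and is assumed to vary as the others do; both comparisons with saline share it. The fit was tested on simulated data for knockout against wild type only, with the same spread for every gene. The comparisons with saline were not tested in this way. Named genes are the 9 members, the 5 nearest patterns and of each other list up to 4 genes with the lowest p in wild type against saline; Cd163, Cd53, Rac2 and Ptprc were added after their values were seen. Certain genes that the rule names are not reported here. The members and lists were chosen with earlier results of these data known. Alternatives were 3 scalings, a pseudocount of 0.1, no filter, a filter at 5, no robustness, only the 2 groups compared, only genes above 0.01, a block of similar libraries and leaving out each caerulein library. Symbols matched current names or synonyms for 1453 of 1457 genes. Sequences are RefSeq (GRCm38.p6) or GENCODE M21, not mm8, and were joined by symbol.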

Additional observations from a re-analysis of the deposited data

How the results depend on the processing

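No paired analysis was possible because the caerulein groups share fewer than 2 replicate numbers. The planned random block of similar libraries could not be fitted, since limma gives no consensus correlation for so few libraries; a fixed block joining wild-type replicate 1 with miR-21-/- replicate 3 and wild-type replicate 2 with miR-21-/- replicate 1 was chosen after seeing the data. For wild-type caerulein against saline, 819 genes (819 higher, 0 lower) became 9 under quantiles (0 higher, 9 lower), 267 under equal sums (235 higher, 32 lower), 440 when the fit held just the 2 groups and 488 when restricted to genes above 0.01 (fewer genes tested), and 377 to 1080 when single libraries were dropped; the 7 of 9 monocyte and macrophage genes became 0 and 3 under quantiles and the restriction, under which 4 of the 9 could be tested, and 6 to 9 when single libraries were dropped; it was 5 under equal sums (without Ctss and Ly6c2), 6 with just the 2 groups (without Ly6c2) and 8, with Lyz1 added, under median ratios, a pseudocount of 0.1 and the fixed block. For the knockout against saline, 863 genes (861 higher, 2 lower) became 6 under quantiles (0 higher, 6 lower), 241 under equal sums (219 higher, 22 lower) and 542 under the restriction, and ranged from 29 to 1028; the 8 of 9 became 0 under quantiles and 4 under the restriction, and ranged from 4 to 8. Between the genotypes, the count of all genes was 0 except 1 with the fixed block, and 0 to 4 when single libraries were dropped; that of the 9 genes was 0 in each setting run.

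Signs turned for Chi3l3 (-0.13 in wild type and -0.10 in the knockout against saline) and Lyz1 (-0.83 and -0.26) with quantile normalization, and for Lyz1 in wild type with equal sums (-0.39). Between the genotypes Mpeg1 and Laptm5 turned to -0.17 and -0.24 with quantiles, -0.06 and -0.03 with equal sums, and -0.04 and -0.01 with median ratios, and Mrc1 to 0.01 with a pseudocount of 0.1. With a library left out, the genotype difference ranged from -0.86 to 1.65 for Emr1, -1.79 to 1.62 for Mrc1, -0.31 to 0.40 for Mpeg1, -0.27 to 0.79 for Ctss, -1.87 to 2.23 for Chi3l3, -0.08 to 0.23 for Laptm5 and -1.01 to 0.59 for Lcp1. The quantile and equal-sum scalings raise the saline library towards the others by construction; the causes of the other changes were not tested. Depth is unknown, so what it limits cannot be given.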
